A study of Sus scrofa with 40 samples.

Results

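The genes described here are the potassium, sodium and calcium channel genes that pork muscle expressed, followed across 4 meat cuts of Chalu black pigs, a pork breed. They were taken from the deposited count table by name, as every gene whose symbol begins with KCN, CACN or SCN and a digit, and by level, as at least 1 CPM (1 read count in 1000000 counts of the library) in 10 or more of the 40 libraries. Of 21280 genes in the table, 125 had such a name and 42 also met the level. At 1 CPM, 25 of the 42 were found in all 40 libraries and the other 17 in 10 to 39 of them. The remaining 83 named genes stayed under the level, 15 of them with no count in any library.

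The tissue came from male pigs of a single sire, kept under the same conditions and sampled after slaughter from the left side of each carcass, with the fascia removed. The groups were LDM, a back muscle (longissimus dorsi), HM, the hamstring, TM, the trapezius over the shoulder, and PB, the belly cut, with 10 libraries each. The labels name no genotype or treatment that differed between the groups, and they give no age. The labels do not say that a library number stands for a pig, so p-values measure the spread between these libraries only.

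Library totals ran from 12305913 to 17735722 counts, so that 1 count stood for 0.0564 to 0.0813 CPM. Genes of skeletal muscle were abundant in every library, with a summed level of at least 97845 CPM over the 7 measured markers, while 6 neuronal markers summed to at most 2.48 CPM and 2 cardiac markers to at most 4.2 CPM. The 10 slow fibre markers were all higher in HM, TM and PB than in LDM, with median sums of 48226, 61148 and 49167 CPM against 15053 CPM. Of the 10 fast fibre markers, 9 were lower in each of these 3 cuts, with median sums of 42272, 32430 and 38515 CPM against 81916 CPM in LDM. The part of this fibre difference in the channel results against LDM was not tested.

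Several libraries stood apart. HM9 and TM7 lay nearer to the mean of LDM than to that of their own cut, TM3 nearer to HM and TM6 nearer to PB, while the other 36 lay nearest to their own cut. HM6 held 7739 CPM of summed smooth muscle and pericyte markers, the next highest library being TM1 with 1875 CPM. PB1 is titled PB but its tissue field names the longissimus. Calls between 2 cuts that are lost without one of these libraries are given both ways. PB8 was the lowest of the 40 libraries for several members, among them SCN4A at 64.9, KCNJ11 at 66.5 and KCNH2 at 1.53 CPM. It also had the highest sum of 5 myeloid cell markers, 216 CPM, the next being PB3 with 130 CPM. PB8 was left out only together with the other libraries of number 8.

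Voltage-gated channels carry the muscle action potential and pass it to the contractile machinery. In a skeletal muscle fibre, sodium channels start the spike along the surface and down the transverse tubules. The L-type calcium channel there acts mainly as a voltage sensor that opens the ryanodine receptor of the sarcoplasmic reticulum, and potassium channels and inward rectifiers return the membrane to rest and hold it there. Auxiliary subunits set how many of these pores reach the membrane and how they gate. Because the tissue was sampled in bulk, fewer cells of a type and less RNA per cell cannot be told apart.

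Per length of the gene model, the members spanned from CACNA1S, the voltage-sensing pore of the L-type channel, at a mean of 145 FPKM (fragments scaled to gene length and library total) over all libraries, to CACNA2D2 at 0.128 FPKM. The next highest members described here were the inward rectifier KCNJ18 at 94.4 FPKM, on a short gene model of 1294 bases, and the L-type beta subunit CACNB1 at 68.1 FPKM. The muscle sodium channel pore SCN4A stood at 37.8 FPKM, CACNG1 at 25.5 FPKM, CACNA2D1 at 19.1 FPKM and the ATP-sensitive channel pore KCNJ11 at 18.9 FPKM. The most abundant of these were thus the muscle sodium channel pore, parts of the L-type calcium channel and inward rectifiers.

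**Figure D1:**
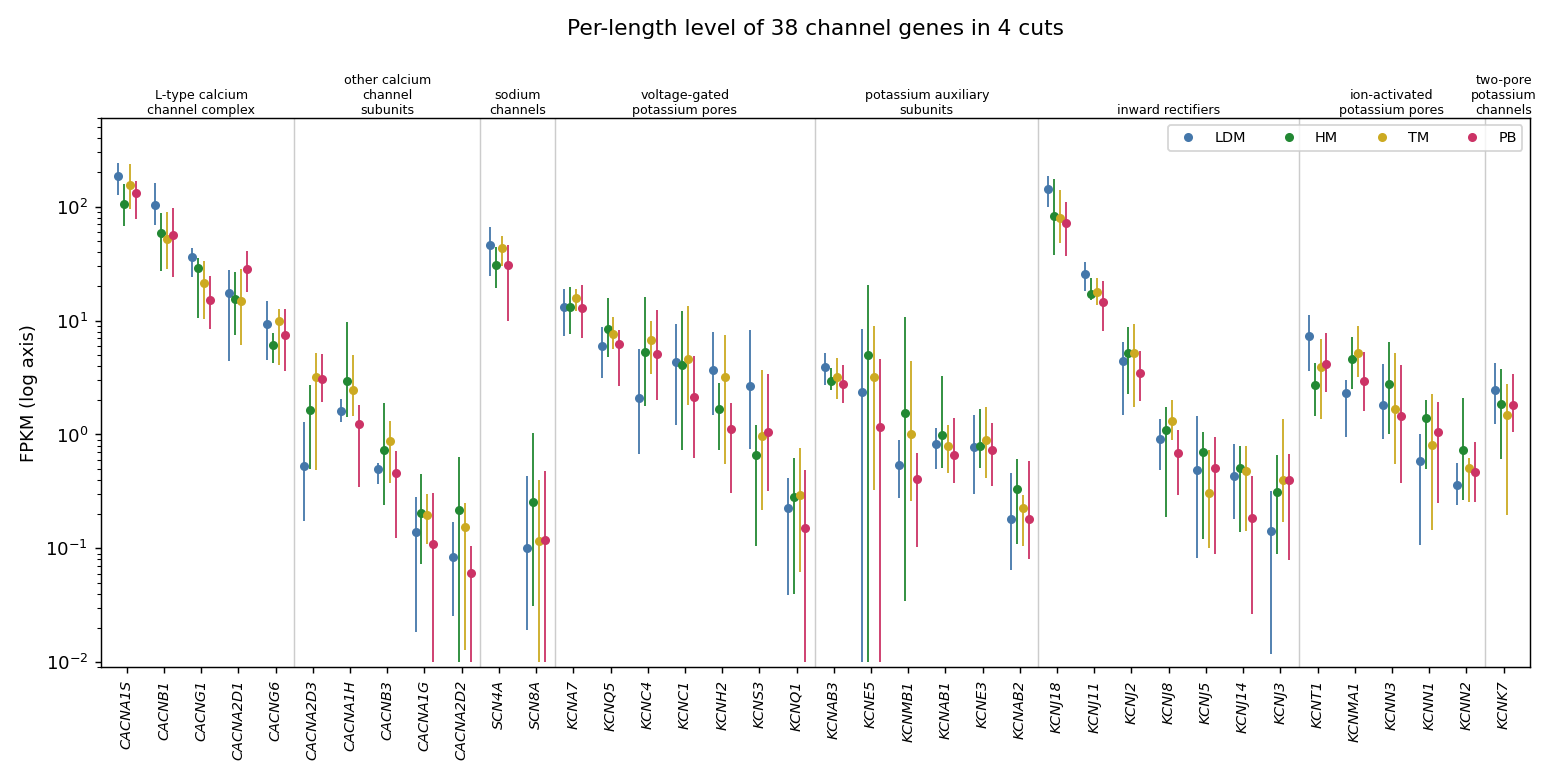
Level per gene length in FPKM (log axis) of 38 of the 42 channel genes, grouped by role. Dots are the means of 10 libraries of a cut and lines run from the lowest to the highest library, with lines that touch the lower edge standing for a library at 0; CACNA1S is highest at a mean of 145 FPKM and CACNA2D2 lowest at 0.128 FPKM.

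Together the members took 0.357% ± 0.0506 (SD, n = 10) of the library counts in LDM, 0.25% ± 0.0509 in PB, 0.289% ± 0.0523 in TM and 0.241% ± 0.0432 in HM. In CPM, the sum was 3567 ± 506 in LDM, 2501 ± 509 in PB, 2887 ± 523 in TM and 2409 ± 432 in HM. The sum is dominated by CACNA1S, which supplied 42.9% ± 5.73 of it in LDM, 43.6% ± 2.45 in PB, 43.7% ± 6 in TM and 35.9% ± 4.29 in HM. By mean CPM, 14 members were highest in HM, 14 in TM, 13 in LDM and 1 in PB, and 24 of the 42 were lowest in PB. The single member highest in PB was CACNA2D1. These sums and ranks use CPM, which is not scaled for composition, and the same ranks over all genes are not given. Mitochondrial genes took a median of 12.7% of counts in PB, 9.84% in HM, 7.54% in TM and 5.2% in LDM. The edgeR fit used below, which is scaled, can differ from CPM. CACNA1S averaged 1092 CPM in PB and 1278 in TM, with a fitted log2 change of -0.0 ± 0.17.

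Differences among the cuts were tested with edgeR's quasi-likelihood test over all 11713 genes that passed its filter, with Benjamini-Hochberg adjustment and a threshold of 0.05. All 42 members were among the genes tested. Some difference among the 4 cuts was called for 26 of the 42 members, or 61.9%, beside 57.2% of all genes tested. Among the 25 members found in every library the count was 17, or 68%. The level rule lets a gene in through its high cut alone, so the count over all 42 is not read as support. CACNA2D2 is the clearest such case, reaching 1 CPM in 6 HM and 4 TM libraries and in no LDM or PB library.

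Against LDM, 19 members differed in PB, 6 higher and 13 lower, where 41.7% of all genes tested were called, 20.5% higher and 21.2% lower. In TM 16 differed, 6 higher and 10 lower, beside 24.7% of all genes, 11.3% higher and 13.4% lower. In HM 20 differed, 8 higher and 12 lower, beside 32.5% of all genes, 16.5% higher and 16% lower. The 25 members found in every library gave 14 calls in PB with 3 higher and 11 lower, 11 in TM with 3 higher and 8 lower, and 15 in HM with 4 higher and 11 lower. The median log2 change of the 42 was -0.3 in PB, 0.04 in TM and 0.2 in HM, beside -0.02, 0.04 and 0.08 for all genes tested. These 3 comparisons share the LDM libraries, so a gene called in several of them has not been seen several times independently.

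**Figure D2:**
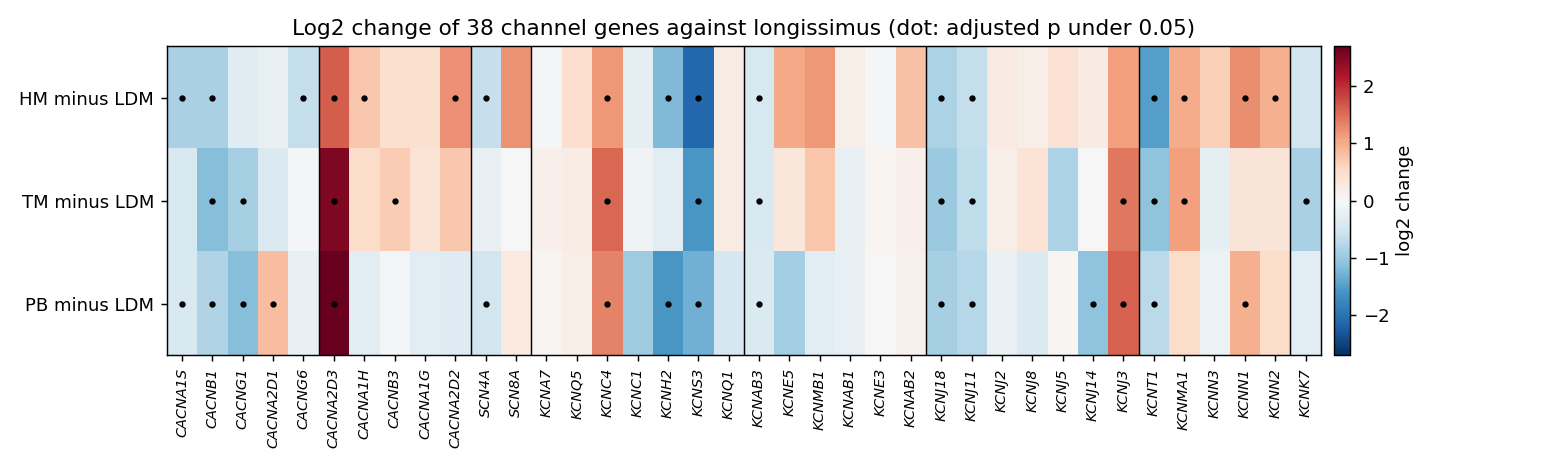
Fitted log2 change of 38 of the 42 channel genes in HM, TM and PB against LDM, as colour, with vertical lines between the role groups; a dot marks an adjusted p under 0.05. Among the genes drawn, dots mark 17 in HM, 13 in TM and 16 in PB, and the 3 comparisons share the LDM libraries.

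The 5 genes grouped with the L-type calcium channel of skeletal muscle all differed among the cuts, beside 57.2% of all genes tested. These were CACNA1S, CACNB1, CACNG1, CACNA2D1 and the related gamma subunit CACNG6. In PB against LDM CACNA2D1 rose, while CACNA1S, CACNB1 and CACNG1 fell. CACNA1S, which forms the pore and senses voltage, is annotated on chromosome 10 from 23502898 to 23568032 of Sscrofa11.1. Its lowest, median and highest libraries were at 1036, 1492 and 1990 CPM in LDM, 553, 787 and 1302 in HM, 784, 1183 and 1958 in TM, and 639, 1117 and 1379 in PB. LDM was highest and HM lowest by median, and the libraries of all cuts overlapped. The log2 change of CACNA1S against LDM was -0.88 ± 0.17 (SE) in HM, with an adjusted p of 0.000147. In TM it was -0.42 ± 0.17 with an adjusted p of 0.0638. In PB it was -0.42 ± 0.17 with an adjusted p of 0.0417, a call that was lost in 12 of 14 alternatives, in which the adjusted p ranged from 0.0175 to 0.134. PB exceeded HM by 0.46 ± 0.17 with an adjusted p of 0.0365, and without the libraries of number 10 by 0.45 with 0.0694, in a range of 0.00491 to 0.0694. For PB against LDM, leaving out PB1, HM6 or TM6 alone each ended the call, with adjusted p of 0.0573, 0.0822 and 0.0824.

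CACNB1, the intracellular beta subunit that carries the pore to the membrane, fell in all 3 cuts against LDM. Its lowest, median and highest libraries were at 279, 394 and 653 CPM in LDM, 109, 241 and 354 in HM, 114, 208 and 360 in TM, and 96.2, 236 and 394 in PB. The medians of the 3 cuts all lay under the lowest LDM library, though single libraries of each overlapped with LDM. The log2 changes against LDM were -0.88 ± 0.20 in HM, -1.16 ± 0.20 in TM and -0.81 ± 0.20 in PB, with adjusted p of 0.000799, 5.2e-05 and 0.00125.

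CACNG1, the gamma subunit of the muscle channel, had its lowest levels in PB. Libraries of CACNG1 ran from 130 to 232 CPM in LDM with a median of 198, from 56.3 to 191 in HM with a median of 169, from 54.9 to 179 in TM with a median of 119 and from 44.9 to 132 in PB with a median of 80.8. PB and LDM overlapped in the top PB library alone, PB10, which reached 132 CPM. The log2 change against LDM was -1.14 ± 0.21 in PB (adjusted p 4.72e-05) and -0.89 ± 0.21 in TM (adjusted p 0.00178). In HM it was -0.32 ± 0.21 and did not pass, with an adjusted p of 0.242. PB lay below HM by a log2 change of -0.82 ± 0.21 with an adjusted p of 0.00311. CACNG6, a related gamma subunit, averaged 15.9 ± 5.88 CPM in LDM, 12.8 ± 4.17 in PB, 17 ± 4.7 in TM and 10.4 ± 2.29 in HM, and its log2 change in HM against LDM was -0.64 ± 0.18 with an adjusted p of 0.00495.

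CACNA2D1 encodes the alpha2-delta subunit, an extracellular part of the channel that supports its traffic to the membrane. It rose in PB against each of the other cuts. CACNA2D1 ran from 37.9 to 237 CPM in LDM with a median of 164, from 64.1 to 230 in HM with a median of 118, from 51.5 to 240 in TM with a median of 111 and from 151 to 347 in PB with a median of 235. The lowest library of LDM, of HM and of TM each carried the number 10, and the ranges of PB and the other cuts overlapped. PB was higher than LDM by 0.84 ± 0.23, than HM by 1.04 ± 0.23 and than TM by 1.22 ± 0.23 on the log2 scale. The adjusted p of these were 0.00387, 0.000932 and 0.000199. Against LDM the changes in HM, -0.20 ± 0.23, and in TM, -0.38 ± 0.23, did not pass, with adjusted p of 0.521 and 0.236.

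Per gene length, CACNA2D1 stood to CACNA1S in a mean ratio of 0.0994 ± 0.0453 in LDM, 0.225 ± 0.0777 in PB, 0.106 ± 0.0593 in TM and 0.155 ± 0.0652 in HM. CACNG1 stood to CACNA1S at 0.203 ± 0.0689 in LDM, 0.115 ± 0.0245 in PB, 0.134 ± 0.0269 in TM and 0.296 ± 0.114 in HM. CACNB1 stood to it at 0.565 ± 0.126 in LDM, 0.412 ± 0.0853 in PB, 0.349 ± 0.134 in TM and 0.561 ± 0.118 in HM. These ratios of FPKM values describe the make-up of the transcript pool and were not tested.

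**Figure D3:**
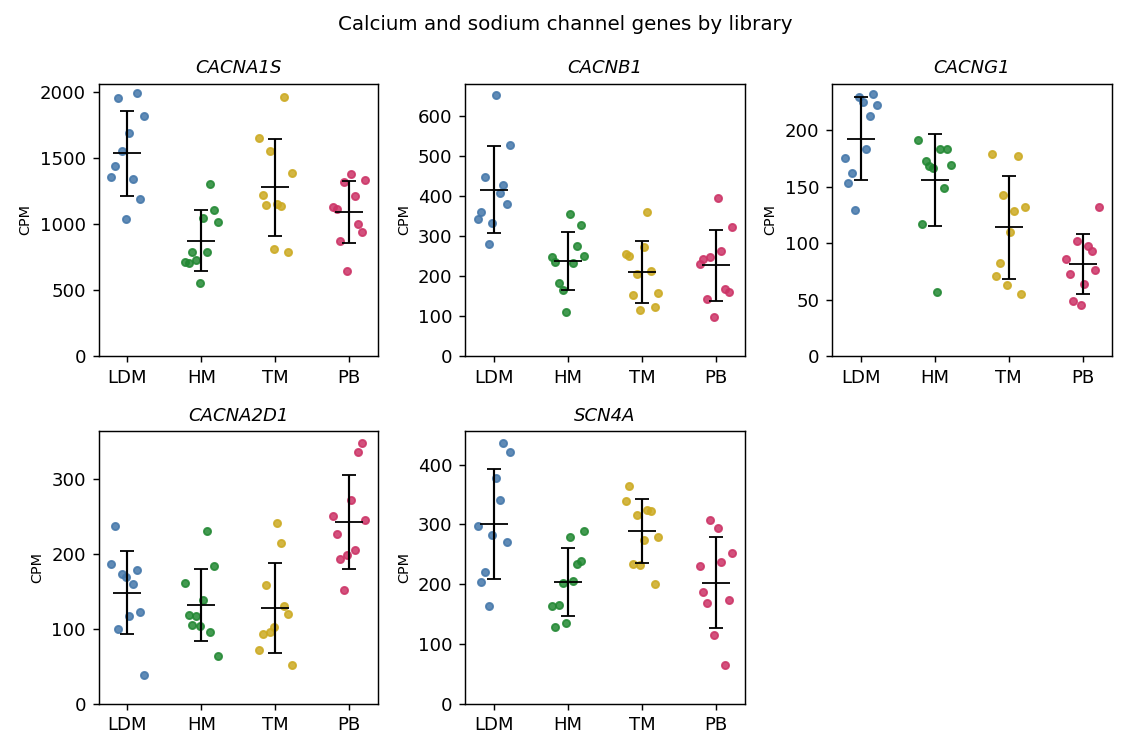
CPM of 4 L-type calcium channel subunits and the sodium channel pore SCN4A in each library of LDM, HM, TM and PB, with points for libraries and bars for the mean ± SD of 10 libraries. CACNA2D1 is highest in PB with a median of 235 CPM, while CACNB1 has its highest median, 394 CPM, in LDM.

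Among the other calcium channel subunits, CACNA2D3 differed most. It is a further alpha2-delta subunit, better known from neurons, and its gene model lies on chromosome 13 from 36222295 to 37019804, across that of LRTM1 on the opposite strand, which averaged 0.235 CPM. The libraries of CACNA2D3 ran from 0.65 to 4.86 CPM in LDM with a median of 2.01, from 1.88 to 10.3 in HM with a median of 6.6, from 1.84 to 19.6 in TM with a median of 11.6 and from 7.23 to 19 in PB with a median of 9.86. Every PB library lay above every LDM library, while HM and TM each overlapped with LDM. The lowest libraries of the 3 cuts were HM9, TM7 and PB1. The log2 change of CACNA2D3 against LDM was 1.63 ± 0.33 in HM, 2.52 ± 0.34 in TM and 2.67 ± 0.34 in PB, with adjusted p of 0.000295, 3.1e-06 and 1.11e-07. PB also exceeded HM, by 1.05 ± 0.31 with an adjusted p of 0.0115. The change from HM to TM, 0.89 ± 0.31, and from TM to PB, 0.15 ± 0.31, did not pass, with adjusted p of 0.189 and 0.758. The 6 neuronal markers, near 0 everywhere as given above, did not enter the edgeR test, so they cannot show whether nerve content differed. Of 7 Schwann cell markers, 0 rose against LDM, while PB had 2 lower, TM 1 and HM 1. The part of nerve content in the CACNA2D3 differences was not tested.

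CACNA1H, a low-voltage-activated T-type pore, was less even. Libraries of CACNA1H ran from 10.4 to 16.3 CPM in LDM with a median of 12.6, from 11.4 to 78.9 in HM with a median of 16.6, from 11.6 to 40.3 in TM with a median of 19.2 and from 2.8 to 14.6 in PB with a median of 9.54. The 78.9 CPM came from HM6 and the 40.3 CPM from TM1, the libraries with most smooth muscle marker counts, and the lowest value from PB8, the library with the fewest, at 240 CPM of these markers. CACNA1H was higher in HM than in LDM by 0.73 ± 0.24 with an adjusted p of 0.0161, and by 0.45 with an adjusted p of 0.0827 without HM6. Over its alternatives the adjusted p of that difference ran from 0.00938 to 0.0953. Against LDM the changes in TM, 0.50 ± 0.24, and in PB, -0.29 ± 0.24, did not pass, with adjusted p of 0.121 and 0.344, though TM did without HM6, HM9, TM3 and TM7, at 0.56 with 0.0451. PB was lower than HM by a log2 change of -1.02 ± 0.24 and than TM by -0.79 ± 0.24, with adjusted p of 0.00139 and 0.0145. Without the libraries of number 8 the change from TM was -0.61 with an adjusted p of 0.0599, the largest over its alternatives, whose smallest was 0.00293.

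The summed level of 8 smooth muscle and pericyte genes had a median of 578 CPM in LDM with a range of 408 to 736, 861 in HM with a range of 579 to 7739, 883 in TM with a range of 517 to 1875 and 522 in PB with a range of 240 to 661. Of these 8 genes 7 were higher in HM than in LDM, 2 were higher in TM and 1 was higher in PB. Within a cut, CACNA1H was set against this sum on the log2(CPM + 1) scale, a relation looked for after the values were seen, as 1 of 16 for 4 genes in 4 cuts with 10 libraries each. In TM, Pearson's r was 0.94 (permutation p 0.00038, adjusted 0.0061) and Spearman's rho 0.89 (permutation p 0.0011, adjusted 0.012), with r at 0.8 without the 2 libraries farthest from the median. For HM, r was 0.94 (permutation p 0.0063, adjusted 0.02), rho 0.71 (permutation p 0.026, adjusted 0.07) and r without the farthest 2 libraries 0.73. In PB r was 0.84 (permutation p 0.024, adjusted 0.049), rho 0.6 (permutation p 0.073, adjusted 0.14) and r without the farthest 2 libraries 0.49, so there the relation rests on those libraries. No such relation was seen in LDM, with r of -0.04 (permutation p 0.91, adjusted 0.91) and rho of 0.02 (permutation p 0.97, adjusted 1), and r of 0.46 without the farthest 2 libraries. Over the 16 relations, for CACNA1H, KCNMB1, KCNMA1 and KCNJ8, 8 had an adjusted p under 0.05 for Pearson's r. The part of smooth muscle content in the CACNA1H differences was not tested.

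CACNB3, a beta subunit of other tissues, averaged 1.71 ± 0.227 CPM in LDM, 1.58 ± 0.748 in PB, 3.03 ± 1.05 in TM and 2.48 ± 1.5 in HM. It was higher in TM than in LDM by 0.68 ± 0.25 with an adjusted p of 0.0398, a call lost without number 8, at 0.65 with an adjusted p of 0.0627, and without TM6, at 0.64 with 0.0633, the largest over its alternatives, whose smallest was 0.00606. The T-type pore CACNA1G averaged 0.821 to 1.54 CPM and did not pass among the cuts, with an adjusted p of 0.326. CACNA2D2 averaged 0.464 ± 0.258 CPM in LDM, 0.335 ± 0.189 in PB, 0.853 ± 0.43 in TM and 1.2 ± 1 in HM, which the level rule itself favours. Its log2 change in HM against LDM was 1.24 ± 0.46, and 1.02 without HM6, with adjusted p of 0.0354 and 0.0966 in a range of 0.0231 to 0.105.

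Of the sodium channel pores, SCN4A carries the muscle action potential. Its libraries ran from 164 to 437 CPM in LDM with a median of 289, from 128 to 289 in HM with a median of 203, from 200 to 365 in TM with a median of 298 and from 64.9 to 307 in PB with a median of 208. The medians of LDM and TM were higher than those of HM and PB, and all ranges overlapped. Against LDM the log2 change was -0.62 ± 0.18 in HM with an adjusted p of 0.00852, and -0.49 ± 0.18 in PB with an adjusted p of 0.0287. The call in PB was lost in 6 of 14 alternatives, with adjusted p from 0.0221 to 0.208, among them those without HM6 at 0.0545 and without TM6 at 0.0547. TM, at -0.19 ± 0.18, did not pass, with an adjusted p of 0.464. The change of SCN4A from HM to TM, 0.42 ± 0.18, and from TM to PB, -0.30 ± 0.18, did not pass either, with adjusted p of 0.299 and 0.242.

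SCN8A, a pore known from neurons, was at 1 CPM in 11 libraries and reached 7.51 CPM in HM3. Its highest library had the number 3 in every cut, at 3.12 CPM in LDM, 3.46 in PB, 2.91 in TM and 7.51 in HM. By edgeR without a term for the library number, SCN8A did not pass among the cuts, with an adjusted p of 0.237, while limma-voom gave 0.045 and, for HM against LDM, a log2 change of 1.84 with an adjusted p of 0.027, beside 1.22 and 0.161 by edgeR. The test with the number as a term is given with the alternatives.

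Voltage-gated potassium pores differed from LDM in both directions, with KCNC4 higher in HM, TM and PB and KCNH2 lower in HM and PB. KCNQ5, a pore of the slowly activating M-type current, averaged 39.3 ± 12.2 CPM in LDM, 40.5 ± 11.9 in PB, 50.4 ± 12.4 in TM and 55.7 ± 20.7 in HM, and did not pass, with an adjusted p of 0.22. KCNQ1, known from heart and epithelia, averaged 0.514 to 1.01 CPM and did not pass, with an adjusted p of 0.539.

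KCNC4, a fast pore of the Kv3 family, rose against LDM in all 3 cuts. Libraries of KCNC4 ran from 4.43 to 37.5 CPM in LDM with a median of 10.2, from 11.7 to 106 in HM with a median of 23, from 22.7 to 65.3 in TM with a median of 45.7 and from 13.3 to 82.9 in PB with a median of 28.7. All ranges overlapped, and the highest LDM library, LDM10, stood apart at 37.5 CPM with the next at 20.1 CPM. Against LDM the log2 changes were 1.17 ± 0.36 in HM, 1.55 ± 0.37 in TM and 1.34 ± 0.36 in PB, with adjusted p of 0.0121, 0.00186 and 0.0033. KCNC1 of the same family averaged 12.5 to 26.7 CPM, varied most between libraries of a cut of all members, with a mean SD of 0.93 on the log2(CPM + 1) scale, and did not pass among the cuts, with an adjusted p of 0.226.

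KCNS3 encodes a subunit that forms no channel alone and modifies other pores. Its libraries ran from 3.32 to 36.3 CPM in LDM with a median of 9.48, from 0.464 to 5.31 in HM with a median of 2.75, from 0.959 to 16.2 in TM with a median of 3.57 and from 1.41 to 15.2 in PB with a median of 3.15. The highest library had the number 10 in all 4 cuts. The next highest were at 15.5 CPM in LDM, 7.15 in PB, 5.14 in TM and 4.98 in HM. Against LDM the log2 changes were -2.12 ± 0.46 in HM, -1.57 ± 0.45 in TM and -1.29 ± 0.45 in PB, with adjusted p of 0.000603, 0.00898 and 0.0187. The call in PB was lost without the libraries of number 8, with an adjusted p of 0.0722 in a range of 0.000133 to 0.0722.

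KCNH2, the pore of the ERG channel, averaged 18.6 ± 8.82 CPM in LDM, 5.59 ± 2.78 in PB, 16 ± 13 in TM and 8.3 ± 3.98 in HM. The libraries of TM spread most, from 2.77 to 37.5 CPM. Against LDM it changed in HM by -1.2 ± 0.38 (adjusted p 0.0133) and in PB by -1.58 ± 0.38 (adjusted p 0.00115) on the log2 scale. TM, at -0.31 ± 0.37, did not pass, with an adjusted p of 0.582. KCNA7, a Kv1 pore of skeletal muscle, had mean levels of 19 ± 5.2 CPM in LDM, 18.6 ± 6.17 in PB, 22.8 ± 2.69 in TM and 18.9 ± 4.57 in HM and did not pass among the cuts, with an adjusted p of 0.703. Its gene model overlaps that of NTF4 on the same strand, so its reads are uncertain.

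**Figure D4:**
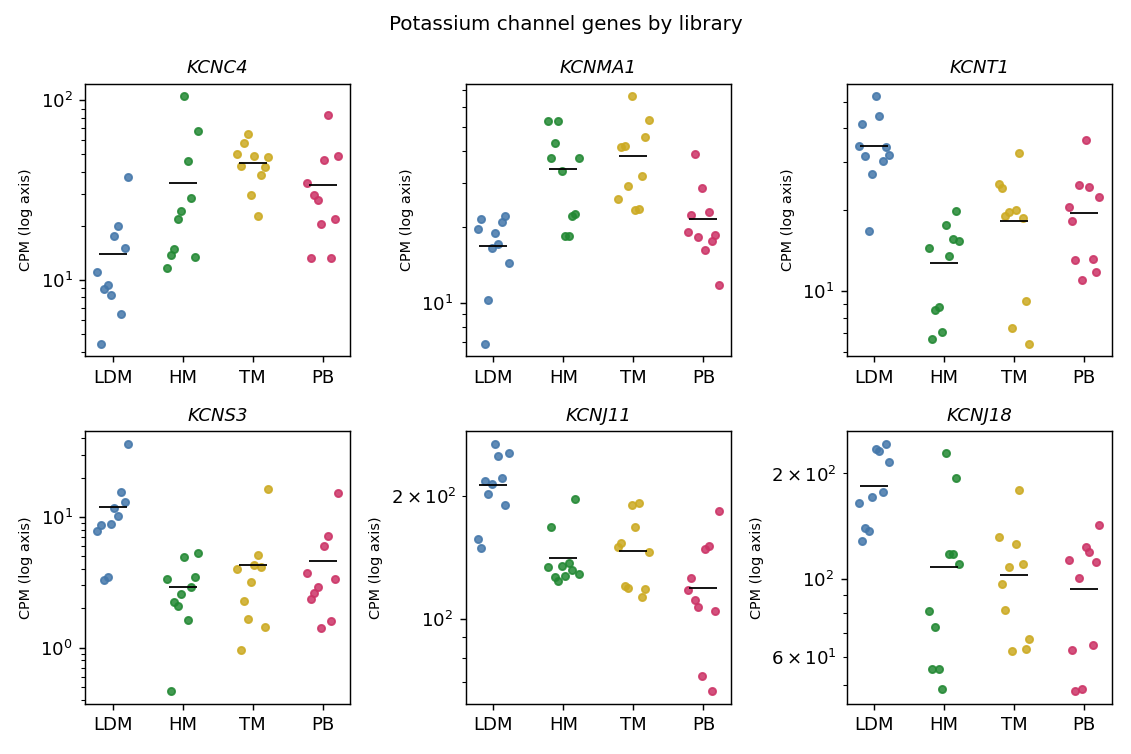
CPM (log axis) of 6 potassium channel genes in each library of LDM, HM, TM and PB; points are libraries and bars are means of 10 libraries. The genes with LDM lowest, KCNC4 and KCNMA1, stand beside those with LDM highest, KCNT1, KCNS3, KCNJ11 and KCNJ18.

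The potassium pores opened by ions inside the cell moved in both directions. KCNMA1, the large-conductance pore opened by calcium and voltage, ran from 6.89 to 22.1 CPM in LDM with a median of 18.1, from 18.4 to 52.9 in HM with a median of 35.4, from 23.4 to 66.2 in TM with a median of 36.8 and from 11.7 to 39.1 in PB with a median of 18.9. Every TM library lay above every LDM library, and HM overlapped with LDM. Against LDM the log2 change was 1.01 ± 0.24 in HM with an adjusted p of 0.00158 and 1.10 ± 0.24 in TM with an adjusted p of 0.000892. In PB it was 0.50 ± 0.24 and did not pass, with an adjusted p of 0.0932, though it did without HM6, at 0.56 with 0.0466. Of 8 endothelial markers, 7 were higher in HM than in LDM, 7 in TM and 2 in PB, and none was lower in these comparisons. Their summed level had a median of 383 CPM in LDM with a range of 333 to 450, 664 in HM with a range of 386 to 1180, 609 in TM with a range of 398 to 888 and 385 in PB with a range of 271 to 549. The part of endothelial content in the KCNMA1 differences was not tested.

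KCNT1, a pore opened by intracellular sodium, was highest in LDM. Its libraries ran from 16.7 to 52.4 CPM in LDM with a median of 33, from 6.7 to 19.9 in HM with a median of 14, from 6.43 to 32.3 in TM with a median of 19.3 and up to 36.2 in PB with a median of 19.3. The median of HM lay under all LDM libraries, and every pair overlapped. The log2 changes against LDM were -1.49 ± 0.24 in HM, -1.09 ± 0.23 in TM and -0.73 ± 0.23 in PB, with adjusted p of 1.48e-05, 0.000666 and 0.0108. PB exceeded HM by 0.76 ± 0.23, with an adjusted p of 0.013. Per length, KCNT1 stood to KCNMA1 at a mean of 3.47 ± 1.49 in LDM, with every library at or above 2.28, and at 0.742 ± 0.494 in HM, 0.929 ± 0.628 in TM and 1.66 ± 0.979 in PB.

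The small-conductance calcium-activated pores KCNN1, KCNN2 and KCNN3 had lower mean levels per length, at 0.961, 0.519 and 1.93 FPKM over all libraries, than KCNMA1 at 3.77 FPKM and KCNT1 at 4.56 FPKM. KCNN3 averaged 20.2 ± 10.2 CPM in LDM, 16.1 ± 11.8 in PB, 18.9 ± 15.1 in TM and 31.4 ± 19.1 in HM. It did not pass among the cuts, with an adjusted p of 0.126, and had a log2 change of 0.64 ± 0.38 in HM against LDM with an adjusted p of 0.196. Without HM6, HM9, TM3 and TM7 the test among the cuts passed, with an adjusted p of 0.00547 in a range of 0.00492 to 0.183 over the alternatives. KCNN1 rose against LDM in HM by 1.25 ± 0.38 and in PB by 0.95 ± 0.38, with adjusted p of 0.011 and 0.0447. The call in PB was lost without PB1, with an adjusted p of 0.0773, and without number 10, with 0.0835, in a range that began at 0.0247. KCNN2 rose in HM by 0.96 ± 0.27 with an adjusted p of 0.00627, from a mean of 1.29 ± 0.389 CPM in LDM to 2.61 ± 1.94 in HM.

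Inward rectifiers hold the resting potential or, in the ATP-sensitive form, couple it to metabolism. KCNJ11, the pore of the ATP-sensitive channel, ran from 149 to 268 CPM in LDM with a median of 216, from 124 to 196 in HM with a median of 133, from 113 to 192 in TM with a median of 148 and from 66.5 to 184 in PB with a median of 115. All 3 cuts lay lower than LDM by median, with some overlap in each. The log2 changes of KCNJ11 were -0.64 ± 0.14 in HM, -0.68 ± 0.14 in TM and -0.76 ± 0.14 in PB, with adjusted p of 0.000663, 0.000431 and 4.57e-05.

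KCNJ18, a rectifier of the Kir2 family of skeletal muscle, ran from 128 to 243 CPM in LDM with a median of 174, from 48.6 to 229 in HM with a median of 95.7, from 62.5 to 179 in TM with a median of 102 and from 47.8 to 142 in PB with a median of 106. LDM was the highest cut by median and overlapped with each of the others. KCNJ18 fell by 0.85 ± 0.21 in HM, 1 ± 0.21 in TM and 0.89 ± 0.21 in PB against LDM on the log2 scale, with adjusted p of 0.0023, 0.000651 and 0.001. Its row spans 61506577 to 61507870 on chromosome 12, inside the gene that RefSeq's table of the same build names KCNJ12, from 61424459 to 61511373. These genes are close paralogs, so the name of this row is uncertain.

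KCNJ2, another Kir2 pore, averaged 34.7 ± 14.8 CPM in LDM, 27.7 ± 8.01 in PB, 41 ± 18.6 in TM and 41 ± 16.7 in HM and did not pass, with an adjusted p of 0.441. KCNJ14 of the same family averaged 1.16 to 1.35 CPM in LDM, HM and TM and 0.489 ± 0.299 in PB. In PB it was lower than LDM by a log2 change of -1.09 ± 0.35, than HM by -1.32 ± 0.34 and than TM by -1.10 ± 0.34, with adjusted p of 0.0109, 0.00372 and 0.0178. The change from TM missed the threshold without number 10, with an adjusted p of 0.0501 in a range from 0.0112. KCNJ3, a G protein-gated pore known from heart and neurons, was low in LDM at 0.704 ± 0.572 CPM. It rose in TM by 1.42 ± 0.46 and in PB by 1.59 ± 0.46, with adjusted p of 0.0194 and 0.00518, while HM, at 1.11 ± 0.46, had an adjusted p of 0.0599. KCNJ3 in HM did pass without HM6, HM9, TM3 and TM7, at 1.27 with 0.0367, and by limma-voom, at 1.85 with 0.0023. It also passed by DESeq2 with an adjusted p of 0.0403, with the library number as a block with 0.00716, without number 8 with 0.0362 and without number 10 with 0.0109. Its partner KCNJ5 averaged 1.75 to 4.04 CPM and did not pass among the cuts, with an adjusted p of 0.0806. KCNJ5 did pass by limma-voom, with an adjusted p of 0.00194, and without number 10, with 0.0199, in a range up to 0.165. KCNJ8, the ATP-sensitive pore of vascular muscle, was lower in PB than in TM by a log2 change of -0.74 ± 0.26 with an adjusted p of 0.0364, while the test among the 4 cuts did not pass at 0.0841. The call from TM to PB was lost in 5 of 14 alternatives with adjusted p from 0.00854 to 0.141, among them those without PB1 at 0.0545 and without HM6 at 0.0532. Its gene model overlaps that of ABCC9 on the same strand.

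Of the auxiliary potassium channel subunits, 1 of 6 differed among the cuts, beside 57.2% of all genes tested. This was KCNAB3, a cytoplasmic beta subunit of Kv1 channels and the member that varied least within a cut, with a mean SD of 0.29 on the log2(CPM + 1) scale. KCNAB3 fell by 0.44 ± 0.12 in HM, 0.41 ± 0.12 in TM and 0.38 ± 0.12 in PB against LDM on the log2 scale, with adjusted p of 0.00601, 0.0119 and 0.0111. The call in PB was lost without number 8, with an adjusted p of 0.0549 in a range from 0.00122. The other beta subunits KCNAB1 and KCNAB2 averaged 4.87 to 7.36 and 0.782 to 1.44 CPM and did not pass, with adjusted p of 0.419 and 0.164. KCNE3, a small subunit that modifies Kv pores, averaged 2.65 to 3.23 CPM with an adjusted p of 0.982. KCNE5 had the library number 2 highest in all 4 cuts, at 3.66 CPM in LDM, 2.03 in PB, 3.97 in TM and 9.09 in HM, and an adjusted p of 0.13. Its cut means ran from 0.511 to 2.17 CPM. For subunits this low, such as KCNE5 and KCNAB2, a missing call does not show equal levels.

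KCNMB1, the beta subunit of KCNMA1 channels in smooth muscle, had medians of 0.931 CPM in LDM, 0.755 in PB, 1.19 in TM and 0.93 in HM. HM6 reached 21.2 CPM and TM1 8.74 CPM. Its log2 change in HM against LDM was 1.17 ± 0.57 with an adjusted p of 0.108 and turned to -0.12 with an adjusted p of 0.86 without HM6. KCNMB1 ran with the summed smooth muscle markers in HM at r = 0.95 (permutation p 0.004, adjusted 0.016), rho = 0.79 (permutation p 0.0087, adjusted 0.034) and r = 0.74 without the 2 farthest libraries. Its r was 0.87 in TM, 0.67 in PB and 0.61 in LDM, with adjusted permutation p of 0.01, 0.049 and 0.12. Without the farthest 2 libraries these r were 0.59, 0.34 and 0.69. KCNMA1 itself had an r of -0.14 (permutation p 0.75, adjusted 0.86) and a rho of 0.36 (permutation p 0.31, adjusted 0.39) in HM, and 0.71 for r without the farthest 2 libraries. KCNMA1 in LDM went the other way, at r = -0.74 (permutation p 0.0019, adjusted 0.01), rho = -0.88 (permutation p 0.0015, adjusted 0.012) and r = -0.69 without the farthest 2 libraries. In TM and PB the r of KCNMA1 was -0.43 and 0.37, with adjusted permutation p of 0.3 and 0.34. For KCNJ8, r was 0.77 in LDM, 0.39 in HM, 0.32 in PB and 0.04 in TM. The adjusted permutation p of these were 0.032, 0.26, 0.5 and 0.91.

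**Figure D5:**
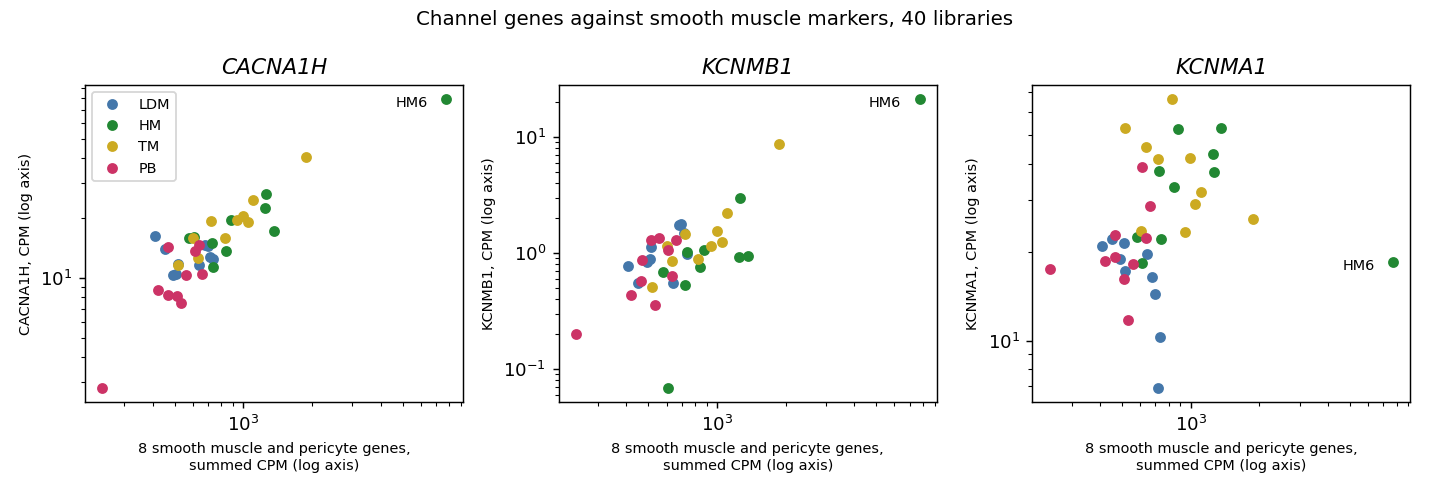
CACNA1H, KCNMB1 and KCNMA1 in CPM (log axis) against the summed CPM of 8 smooth muscle and pericyte genes (log axis), with 1 point per library coloured by cut. HM6, at 7739 CPM of the markers, is the far right point, with CACNA1H at 78.9 CPM and KCNMB1 at 21.2 CPM.

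KCNK7, the single member of the tandem-pore family, averaged 2.38 ± 0.859 CPM in LDM and 1.43 ± 0.766 in TM, a log2 change of -0.88 ± 0.31 with an adjusted p of 0.0331. The test among the 4 cuts did not pass, with an adjusted p of 0.0815 in a range of 0.0202 to 0.219 over the alternatives. The call in TM was lost in 4 of 14 alternatives, with adjusted p from 0.00829 to 0.0978, the latter without number 10.

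Between the cuts other than LDM, fewer members differed. PB and HM differed for 8 members, 4 higher and 4 lower in PB, beside 27.6% of all genes tested, 13.5% higher and 14.1% lower. The higher ones were CACNA2D3, CACNA2D1, KCNT1 and CACNA1S, and the lower ones CACNA2D2, KCNJ14, CACNA1H and CACNG1. CACNA2D2 met the level rule through HM and TM libraries alone, so its call is not read as support. Of the 25 members found in every library, 5 differed between PB and HM, 3 higher and 2 lower in PB. PB and TM differed for 7 members, 1 higher and 6 lower in PB, beside 23.1% of all genes, 13.4% higher and 9.69% lower. CACNA2D1 was the one higher in PB, and KCNH2, KCNJ14, CACNA1H, KCNJ8 and CACNB3 were among the lower. Of the 25 members found in every library, 4 differed between PB and TM, 1 higher and 3 lower in PB. The log2 change of CACNB3 from TM to PB was -0.73 ± 0.25 with an adjusted p of 0.0308. That call was lost in 3 of 14 alternatives, without TM6 at -0.63 with an adjusted p of 0.0743, without number 10 at -0.65 with 0.0648 and without number 8 at -0.55 with 0.133, in a range from 0.00479. For KCNH2 it was -1.28 ± 0.38 with an adjusted p of 0.0133, and -0.89 with 0.0937 by limma-voom, in a range from 0.00515. The median log2 change of the 42 was -0.36 for PB against HM and -0.11 for PB against TM, beside -0.05 and -0.06 for all genes tested.

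Between TM and HM edgeR called 0 of the 42 members, beside 0.768% of all genes tested. At an unadjusted p under 0.05 there were 10, while DESeq2 called 1, CACNG6 at 0.62, and limma-voom called 2, KCNN1 at -1.37 and KCNJ5 at -1.58, as log2 changes of TM against HM. The median log2 change of the 42 was -0.03, beside -0.02 for all genes tested.

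Other genes of excitation and of excitation-contraction coupling were read for context from a list of 48, of which 43 were tested. Among the cuts 27 of the 43 differed, or 62.8%, beside 57.2% of all genes tested. Against LDM, 18 differed in PB, or 41.9% beside 41.7% of all genes, with 7 higher and 11 lower. In TM 15 differed, or 34.9% beside 24.7%, with 3 higher and 12 lower. In HM 26 differed, or 60.5% beside 32.5%, with 10 higher and 16 lower. Their median log2 changes were -0.14, -0.14 and -0.16, beside -0.02, 0.04 and 0.08 for all genes tested. STAC3, an adaptor that the L-type channel needs in skeletal muscle, averaged 803 ± 137 CPM in LDM, 383 ± 60.5 in PB, 437 ± 92 in TM and 499 ± 146 in HM. Its log2 changes, each past the threshold, were -0.73 ± 0.13 in HM, -1.02 ± 0.13 in TM and -0.97 ± 0.13 in PB. TRDN, triadin of the junctional sarcoplasmic reticulum, averaged 202 ± 119 CPM in LDM, 855 ± 362 in PB, 204 ± 123 in TM and 204 ± 80.6 in HM, with a log2 change of 2.21 ± 0.32 in PB against LDM and an adjusted p of 9.75e-07. PB was thus the highest cut for TRDN and for CACNA2D1. Of the same list, ANK3, AQP4 and ATP2B1 were also highest in PB, at means of 268, 17.4 and 104 CPM, and passed against each other cut.

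The fast calcium store and pump genes fell against LDM in all 3 cuts. CASQ1, the fast calsequestrin, averaged 4176 ± 1007 CPM in LDM and changed by -1.05 ± 0.20 in HM, -0.99 ± 0.20 in TM and -1.04 ± 0.20 in PB. ATP2A1, the fast calcium pump, changed by -1.13 ± 0.26, -1.41 ± 0.26 and -0.75 ± 0.26 in HM, TM and PB, where the last missed the threshold without number 8, with an adjusted p of 0.0502. Against LDM the slow pump ATP2A2 rose by 1.27 ± 0.28, 2.18 ± 0.29 and 1.78 ± 0.29 in HM, TM and PB. CLCN1, the chloride channel that holds muscle at rest, averaged 29.4 ± 5.23 CPM in LDM, 27.2 ± 8.68 in PB, 31.2 ± 5.97 in TM and 29.3 ± 12.1 in HM and did not pass, with an adjusted p of 0.977. ABCC8, a regulatory partner of KCNJ11 known from beta cells, averaged 0.589 to 2.47 CPM. RYR1 was not analysed here.

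Values near the level rule are given as a description. Just inside stood KCNAB2 with 15 libraries at 1 CPM, KCNQ1 with 12, SCN8A with 11 and CACNA2D2 with 10. Just outside stood KCNIP2 with 8, and CACNG8, KCNMB4, CACNA1D, KCNE4 and KCNK2 with 7 each. Identifiers without a symbol in the table were not taken, among them those that the reference names KCNE1, at 1 CPM in 22 libraries, and CACNA1C, at 1 CPM in 34.

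By position, chromosome 12 carried 7 of the 42 members, or 16.7%, beside 5.93% of the genes tested: CACNG1, SCN4A, CACNB1, CACNA1G, KCNJ18, KCNAB3 and KCNJ2. Of these, CACNG1, CACNB1, SCN4A, KCNJ18 and KCNAB3 each fell in PB against LDM, while CACNA1G and KCNJ2 did not pass among the cuts. The library with the highest level bore the same number in all 4 cuts for 3 of the 42 members, or 7.14%, beside 1.08% of the genes tested. These were SCN8A, KCNS3 and KCNE5. Gene models of 7 members overlap another model, and no source used here gives the strand setting, so their reads cannot be assigned with certainty.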

How the data were processed

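Messenger RNA of 40 libraries was measured, 10 from each of 4 cuts, made with a stranded kit from Trizol-extracted RNA, per the labels' protocols. The authors deposited read counts in whole numbers and FPKM values for 21280 genes in each library, with gene lengths, per the file headers. The tools are listed without roles as cutadapt 1.15, HTSeq 0.9.1 and HISAT2 2.0.5, with the build Sscrofa11.1, per the submitters' processing notes. The deposited FPKM equals the count over gene length and library total within a relative tolerance of 0.001 for 100% of the counts above 0, so it served for levels only. CPM is the count over the library total. There were 0 columns without a sample and 0 lines without a gene.

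Libraries were grouped by title. The test of counts was that of edgeR 4.0.16 under R 4.3.3 (TMM scaling, filterByExpr by cut, a robust quasi-likelihood fit over the 40 libraries together), as an F test among the cuts and 6 contrasts, and Benjamini-Hochberg adjustment over 11713 genes at 0.05. Log2 changes carry the SE of the fit. The scripts were tested on simulated data. Alternatives were DESeq2 1.42.0, limma 3.58.1 (voom with quality weights), 2 other scalings, 2 other filters, scaling without mitochondrial genes, the library number as a block and libraries left out, of which those without HM6, without TM6 and without number 10 were added after the data were seen. Relations with smooth muscle markers used permutation tests (100000 resamples, two-sided) with adjustment over 16 relations.

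The members and lists were chosen with earlier results of these data known. Named genes were the best known channels of skeletal muscle, the 12 members with the smallest adjusted p of the F test, and the 3 highest and 3 lowest passing log2 changes per pair; others are named where a role group needed them. Of the 42 identifiers, 40 carry the same symbol in the reference table. Channel sequences were not used here. Counting precision is limited by depth: 1 count stands for 0.0564 to 0.0813 CPM. Some genes that the rule names are counted but not reported here.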

Additional observations from a re-analysis of the deposited data

Results flagged for a closer look

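In 92 groups of 10 libraries, a gene's highest or lowest library was compared with its nearest neighbour by Dixon's test at 95%. These groups cover only the reported genes picked by the naming rule above, not the members named for a role group. Here 16 were marked, each a library above the rest of its cut. Chance marks about 1 in 20 groups only where values are normally distributed. CPM was used untransformed, so the 16 cannot be read as an excess over chance. The values are CPM. HM6 held 3 of the 16 marked values: CACNA1H at 78.9 (next library 26.3), CACNA2D2 at 3.53 (next 1.66) and KCNE3 at 6.01 (next 3.46). Among members that the test did not cover, KCNMB1, KCNAB1 and CACNB3 were also highest of HM in HM6. They stood there at 21.2 (next 2.97), 24.3 (next 7.31) and 6.5 (next 2.95). HM6 is also the library with the most smooth muscle and endothelial marker counts.

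Number 10 held 5. KCNS3 stood apart in LDM10 at 36.3, in TM10 at 16.2 and in PB10 at 15.2. KCNC4 stood at 37.5 in LDM10 (next 20.1) and KCNJ3 at 6.77 in TM10 (next 3.51).

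KCNN3 was far above its cut in LDM8 at 46.1, in TM3 at 58.2 and in PB8 at 46.1. The other marked values were CACNA1H at 40.3 in TM1, CACNA2D3 at 4.86 in LDM9, KCNC4 at 82.9 in PB7, KCNE3 at 6.36 in TM6 and KCNH2 at 39.4 in LDM7.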

How the results depend on the processing

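Of 70 member and pair results called by edgeR, 55 kept their call and direction in all 14 alternatives, 15 lost the call in at least 1 and 0 reversed. For PB against HM the count was 8, and 8 to 13 over the alternatives. It was 13 by limma-voom, 12 with the replicate block and 12 without HM6, HM9, TM3 and TM7. For PB against TM it was 7, and 4 to 10 over the alternatives, with 4 without the libraries of number 8 and 10 without those 4 libraries. For TM against HM it was 0, and 1 by DESeq2, 2 by limma-voom, 2 with the replicate block, 1 without HM6, HM9, TM3 and TM7, and 1 without HM6. Among the other excitation genes, PB against TM gave 7, with 11 without those 4 libraries and 4 without number 10. TM against HM gave 0 of them, with 1 by DESeq2, 2 by limma-voom, 1 with the replicate block, 1 without the 4 libraries, 1 without number 8 and 1 without TM6. KCNMB1 in HM against LDM, which had not passed at 1.17, turned to -0.15 by DESeq2, -0.08 without the 4 libraries and -0.12 without HM6. The cause of these changes was not tested, except that the last 2 settings leave out HM6.

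The library numbers were not taken as pairs. Over 60 pairs of libraries with the same number, deviations from the cut mean correlated at a median of 0.247 and from -0.127 to 0.51, with 52 above 0.1, beside a median of -0.0334 for other pairs. A library correlated best with its own number in 62 of 120 cases, each a choice among the 10 libraries of another cut. Libraries of the same number thus tended to deviate together, and the main edgeR test has no term for this. With the number as a block, 31 members differed among the cuts in place of 26, and CACNA1S in TM against LDM passed at -0.42 with an adjusted p of 0.018. Beyond those 26, members that passed among the cuts with the block were SCN8A at 0.00533, KCNJ5 at 0.00734, KCNJ8 at 0.02, KCNK7 at 0.0253, KCNN3 at 0.0283 and KCNQ5 at 0.0473, while KCNN2 was lost at 0.0564. In HM against LDM the block gave SCN8A a call at 1.26 with an adjusted p of 0.00476 and KCNJ3 one at 1.46 with 0.00716, and CACNA2D2 lost its call at 1.08 with 0.0611.

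Depth limits the low members: for those near 1 CPM a library holds few reads, and single libraries decide their means.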
